A study of Mus musculus with 9 samples.

Results

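Caveolae are flask-shaped pits of the plasma membrane, and the transcripts of 7 genes that build them were followed here through activation of the membrane-lytic protein MLKL and washout of its activator. The genes were chosen by what they encode, with earlier results of these data known. Included were the caveolins Cav1 and Cav2, the cavins Cavin1, Cavin2 and Cavin3, and the neck proteins Ehd2 and Pacsin2. They are 7 of 22180 measured mouse genes, and each was read by 1 probe set that carried its symbol alone (17456161 for Cav1, 17456152 for Cav2, 17269748 for Cavin1, 17212719 for Cavin2, 17494503 for Cavin3, 17486807 for Ehd2 and 17319830 for Pacsin2). All 7 had mean signals above those of 91% of measured genes, a rough guide since probe sets differ in brightness. RNA came from hMLKL1-181-2Fv-NIH3T3 cells, mouse embryonic fibroblasts that carry part of human MLKL joined to Fv domains. B/B is a small molecule that brings Fv domains together and so clusters the fusion protein, and annexin V (AnnV) binds phosphatidylserine that such cells expose. Cells of the washout group had 1 h of B/B at 50 nM, a sort for AnnV+ cells and then 6 h of washout, which the labels give as 3000 nM of a compound that they do not name. Cells of the B/B 1 h group had the same dimerizer treatment and sort, without the washout. The control group had the label of a control treatment and no B/B. Cells of all 3 groups carry the fusion protein, with 3 arrays per group. The labels do not say what drives the fusion gene, whether the line is 1 clone, whether control cells were sorted, when they were harvested, or whether the arrays of a group came from separate cultures. Against control, the effects of B/B, of the sort and of harvest time cannot be told apart. For the washout group this also holds for the unnamed compound. Between washout and B/B 1 h, the removal of B/B, the compound and the 6 h after the sort cannot be told apart. The p-values measure the spread between these samples, which may be technical.

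Caveolins are hairpin proteins inserted in the inner leaflet, and caveolin-1 oligomers, with caveolin-2 in mixed complexes, form the inner coat of the pit. Cavins make an outer coat of coiled-coil trimers: cavin-1 is needed for caveolae to form, cavin-2 helps to bend the membrane, and cavin-3 joins the coat through cavin-1. EHD2, an ATPase that oligomerizes at the neck, holds the pit at the surface, and pacsin-2 (syndapin-2) is an F-BAR protein that shapes the neck. Fibroblasts, endothelium, fat and muscle are rich in caveolae, which flatten when the membrane is stretched and have been studied in membrane repair.

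The question put to the 3 groups was whether these transcripts differed in cells whose MLKL was activated and in cells after the dimerizer was washed out. After washout, 6 of the 7 genes stood below control and Pacsin2 did not pass the threshold, which was an adjusted p under 0.05 in limma after Benjamini-Hochberg adjustment over all genes. Among all genes tested in this comparison 26.2% were called, 11.7% lower and 14.5% higher. The share was higher with dim genes left out, and all 7 lay among the brighter genes, so shares over all genes are a low reference for them. With the lowest 30% by mean left out and the adjustment redone, 6078 of the remaining genes were called, against 5814 of all genes. The same filter gave 952 against 642 in B/B 1 h against control, and 6598 against 6345 in washout against B/B 1 h. The part of these rises that comes from adjusting over fewer genes was not tested. Cavin2 fell most of the 7, 1.96-fold, followed by Cav2, 1.73-fold. At 1 h of B/B, before washout, 1 of the 7 was called, Cavin1, which fell 1.21-fold, where 2.89% of all genes were called, 1.88% lower and 1.01% higher. The Cavin1 call was lost under 9 of 19 alternatives (adjusted p up to 0.104), and the 642 genes called in all were as few as 323 with the third control array left out. In washout against B/B 1 h, 5 of the 7 fell and Pacsin2 rose, against 28.6% of all genes called, 12.0% lower and 16.6% higher. The Pacsin2 call was lost without the second washout array (adjusted p 0.0684). These 3 comparisons share arrays in pairs, so their counts are not independent. The 7 genes also all passed the F-test over the 3 groups, as did 29.5% of all genes, though Pacsin2 was close to the threshold (F-test adjusted p 0.046 in limma) and lost this call whichever array was left out.

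**Figure D1:**
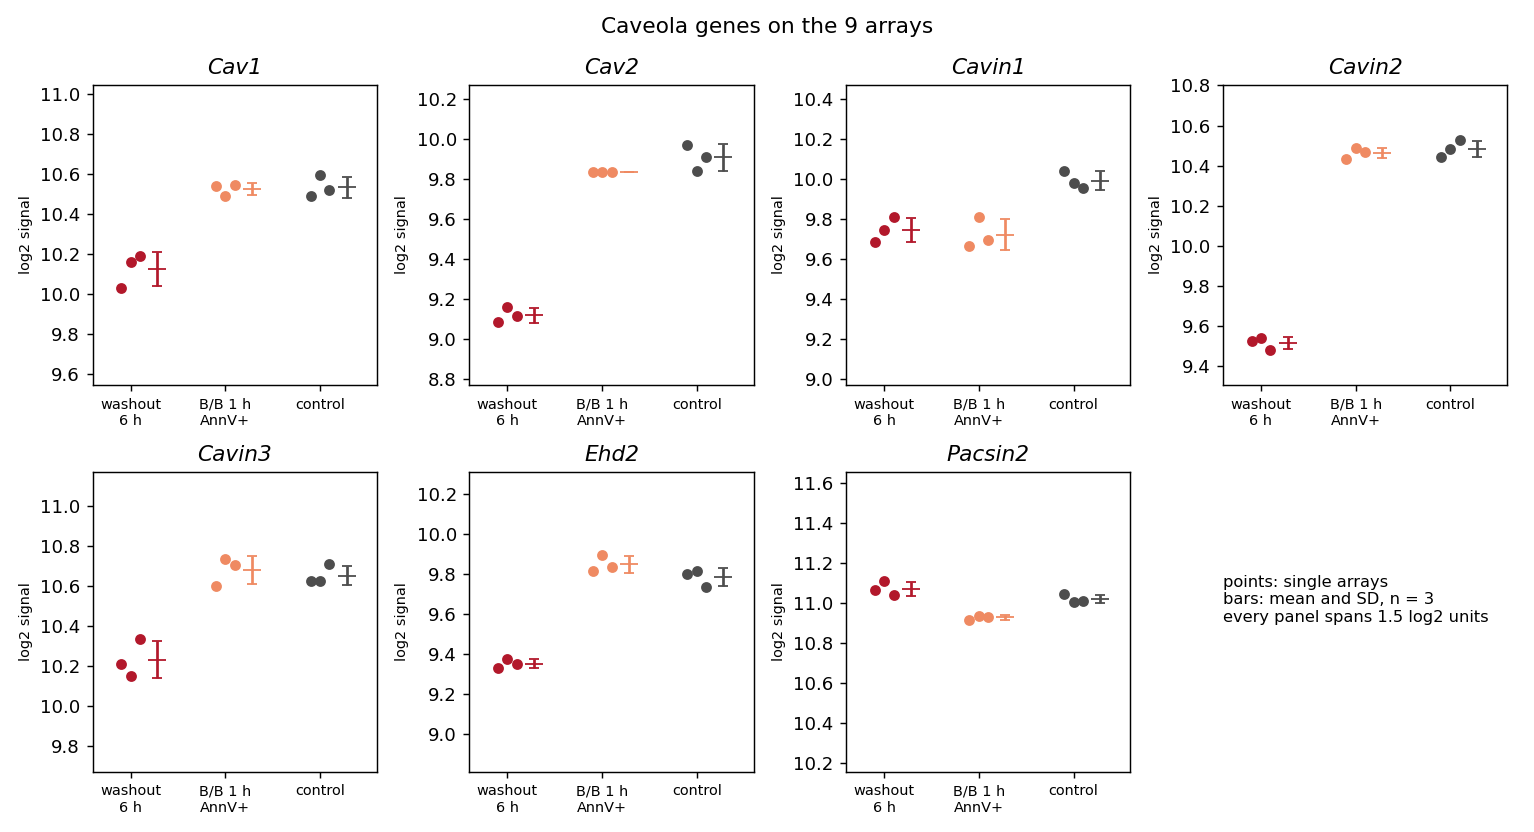
Log2 signal of each caveola gene (vertical axis, 1.5 log2 units in every panel) on the single arrays of the washout, B/B 1 h AnnV+ and control groups, with the mean and SD of each group (n = 3) beside the points. The washout arrays lie below all others for Cav1, Cav2, Cavin2, Cavin3 and Ehd2, while Cavin1 is low in both treated groups and Pacsin2 stays within a narrow range.

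The promoters of 4 genes are shown because they hold the contrast among the members: the neighbouring genes Cav2 and Cav1, at log2 differences of -0.79 and -0.41 in washout against control, and Cavin2 and Cavin1, which fell most and least of the 6 that fell. Each is the 250 bases before the annotated start that lies farthest upstream, in the direction of transcription, from RefSeq on build GRCm38.p6. The windows lie at chr6:17280935-17281184 on the plus strand, chr6:17306085-17306334 on the plus strand, chr1:51288876-51289125 on the plus strand and chr11:100970618-100970867 on the minus strand. Capitals mark matches to any of 5 motifs searched on both strands, namely the AP-1 site TGANTCA, the TEAD site CATTCC, the CCAAT box CCAAT, the GC box GGGCGG and the TATA box TATAAA.
Cav2: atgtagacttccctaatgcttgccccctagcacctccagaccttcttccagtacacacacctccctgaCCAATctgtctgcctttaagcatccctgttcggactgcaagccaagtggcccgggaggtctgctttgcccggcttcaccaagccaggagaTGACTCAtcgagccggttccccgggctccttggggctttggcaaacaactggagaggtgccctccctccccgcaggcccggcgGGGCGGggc
Cav1: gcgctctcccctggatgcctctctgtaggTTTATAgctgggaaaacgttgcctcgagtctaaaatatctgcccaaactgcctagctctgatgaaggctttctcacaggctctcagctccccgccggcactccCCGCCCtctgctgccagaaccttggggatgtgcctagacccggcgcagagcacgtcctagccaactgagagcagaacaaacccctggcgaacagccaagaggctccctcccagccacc
Cavin2: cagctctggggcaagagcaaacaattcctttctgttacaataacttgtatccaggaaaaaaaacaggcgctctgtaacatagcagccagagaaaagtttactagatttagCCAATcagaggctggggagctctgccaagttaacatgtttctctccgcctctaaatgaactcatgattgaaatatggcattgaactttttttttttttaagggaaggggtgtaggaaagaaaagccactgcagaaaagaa
Cavin1: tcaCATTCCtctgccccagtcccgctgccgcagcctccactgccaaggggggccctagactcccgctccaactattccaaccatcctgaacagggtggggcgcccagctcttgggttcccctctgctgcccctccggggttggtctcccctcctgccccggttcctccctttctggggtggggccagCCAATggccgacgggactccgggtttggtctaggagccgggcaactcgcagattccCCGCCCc
The Cav2 window held an AP-1 match whose first base lies 92 bases before the start, along with a CCAAT box and a GC box. The Cav1 window held a GC box and, 221 to 216 bases before the start, the TATA box letters on the opposite strand. The Cavin2 window held a CCAAT box alone among these motifs and had the lowest GC content of the members with a window, 40.4%, where the median of all 32851 promoter windows was 52.4%. The Cavin1 window held a TEAD match 247 to 242 bases before the start, a CCAAT box and a GC box, and its GC content was 67.6%. Windows were found for 6 of the 7 genes, the exception being Cavin3. Of these 6, 5 held a CCAAT box, against 33.8% of all windows, and 5 a GC box, against 32.7%. The AP-1 site was in Cav2 alone, the TEAD site in Cavin1 alone and the TATA box letters in Cav1 alone, against 6.75%, 12.6% and 12.4% of all windows. These counts take 1 window per member, although Cav1 and Cavin1 had 2 annotated windows each and Pacsin2 had 3. Their other windows are not described here, whereas the shares count every window. The motifs were picked with the sequences in view and the matches are a description, not binding sites. No motif match split the genes that fell after washout from Pacsin2, whose window held CCAAT and GC boxes as those of Cavin1, Cav2 and Ehd2 did.

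Cav1, which encodes the main structural protein of caveolae outside striated muscle, read 10.03, 10.16 and 10.19 on the washout arrays, 10.54, 10.49 and 10.54 on the B/B 1 h arrays and 10.49, 10.59 and 10.52 on the control arrays (log2 signal). All 3 washout arrays were below every other array, and B/B 1 h and control arrays overlapped. Cav1 fell by 0.41 ± 0.053 (log2 difference, SE; 95% interval -0.53 to -0.29) in washout against control, with a limma adjusted p of 3.0e-04. Against B/B 1 h the fall was 0.40 ± 0.053 (log2, SE; limma adjusted p 3.2e-04). The log2 difference of B/B 1 h from control was -0.01, with an interval of -0.13 to 0.11 (limma adjusted p 0.941).

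Cav2, which encodes the partner that depends on caveolin-1 to leave the Golgi, read 9.08, 9.16 and 9.11 after washout, 9.83 on each of the 3 B/B 1 h arrays and 9.97, 9.84 and 9.91 in control (log2 signal). Washout arrays stood apart from the other 6, and the B/B 1 h arrays lay just under the lowest control array without passing the test. Cav2 fell by 0.79 ± 0.046 in washout against control (log2, SE; 95% interval -0.89 to -0.69; limma adjusted p 2.2e-06) and by 0.72 against B/B 1 h (limma adjusted p 3.3e-06). In B/B 1 h against control the log2 difference was -0.07, with an interval of -0.18 to 0.03 (limma adjusted p 0.422). Cav2 and Cav1 lie next to each other on chromosome 6, with 0 annotated genes between them, and both are read from the plus strand.

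Within an array the neighbours were compared directly. The log ratio of Cav1 over Cav2 ran from 0.94 to 1.07 after washout, 0.65 to 0.71 at B/B 1 h and 0.52 to 0.75 in control. It was higher after washout by 0.38 than in control and by 0.32 than at B/B 1 h, with no overlap of the arrays in either case. Such ratios were tested for 6 gene pairs in 3 comparisons with two-sided exact permutation tests, and 3 arrays against 3 cannot give a p below 0.10, the value found here. No ratio in these 18 tests can pass 0.05, adjusted or not, so the ratios are given for their size and overlap.

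**Figure D2:**
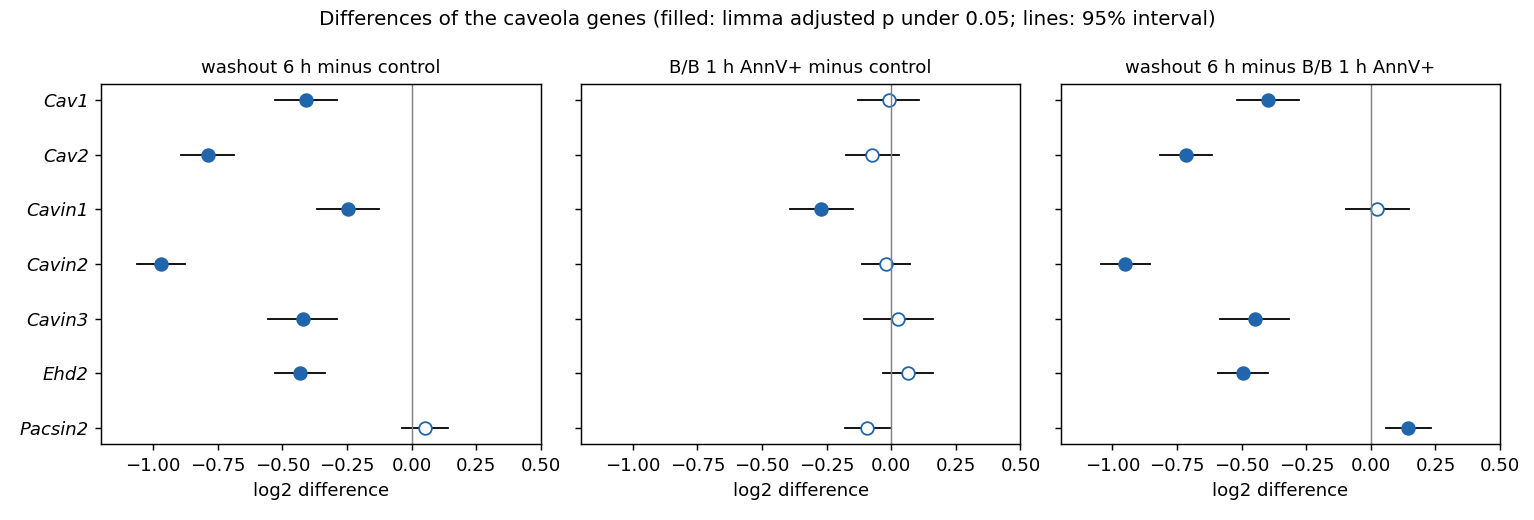
Log2 differences (horizontal axis) of the 7 genes in washout 6 h minus control, B/B 1 h AnnV+ minus control and washout 6 h minus B/B 1 h AnnV+, with 95% intervals from limma as lines and filled points for adjusted p under 0.05. Cavin2 and Cav2 stand at -0.97 and -0.79 in washout minus control, and Cavin1 is the filled point at 1 h, at -0.27.

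Of the 3 cavins, Cavin2 and Cavin3 were not called at 1 h and fell after washout, by unlike amounts. Cavin2, whose protein senses and promotes membrane curvature, read 9.52, 9.54 and 9.48 after washout, 10.43, 10.49 and 10.47 at B/B 1 h and 10.44, 10.48 and 10.53 in control (log2 signal). The gap between the washout arrays and the other 6, which overlapped among themselves, was the widest of the 7 genes. Cavin2 fell by 0.97 ± 0.042 against control (log2, SE; 95% interval -1.06 to -0.88; limma adjusted p 4.0e-07) and by 0.95 against B/B 1 h (limma adjusted p 3.4e-07). By log2 difference from control it ranked 106th from the lowest of 22180 genes, and Cav2 ranked 201st. At 1 h its log2 difference from control was -0.02, with an interval of -0.11 to 0.07 (limma adjusted p 0.831).

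Cavin3, a cavin that also binds protein kinase C delta, read 10.21, 10.15 and 10.33 after washout, 10.60, 10.73 and 10.70 at B/B 1 h and 10.62, 10.62 and 10.71 in control (log2 signal). Its washout arrays were again the 3 lowest. The fall was 0.42 ± 0.059 against control (log2, SE; 95% interval -0.55 to -0.29; limma adjusted p 5.0e-04) and 0.45 against B/B 1 h (limma adjusted p 3.0e-04). The value at 1 h was 0.03, within an interval of -0.10 to 0.16 (limma adjusted p 0.835).

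Cavin1, the gene of the cavin on which the whole outer coat rests, had another course. It read 9.69, 9.74 and 9.81 after washout, 9.66, 9.81 and 9.69 at B/B 1 h and 10.04, 9.98 and 9.95 in control (log2 signal), so that both treated groups lay under every control array and overlapped each other. At 1 h it fell by 0.27 ± 0.054 (log2, SE; 95% interval -0.39 to -0.15), at a limma adjusted p of 0.0326. The call was lost without any 1 of the control arrays, without the first or the third of the B/B 1 h arrays and without the second washout array, where the adjusted p ran up to 0.104, while the log2 difference stayed between -0.31 and -0.24. After washout it stood 0.25 lower than control (log2 difference -0.25 ± 0.054, SE; limma adjusted p 0.00713). In washout against B/B 1 h the log2 difference was 0.02, with an interval of -0.10 to 0.15 (limma adjusted p 0.790), which does not reach the -0.45 of Cavin3.

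Within each array, the log ratio of Cavin2 over Cavin1 ran from -0.33 to -0.16 after washout, 0.68 to 0.77 at B/B 1 h and 0.40 to 0.57 in control. The change of this log ratio was -0.72 in washout against control and 0.25 in B/B 1 h against control, with no overlap between groups (two-sided exact permutation p 0.10 each, the smallest possible). The ratio of Cavin3 over Cavin1 showed the same order, 0.40 to 0.52 after washout, 0.92 to 1.01 at B/B 1 h and 0.58 to 0.75 in control. The ratio of Cavin1 over Cav1, the outer coat against the inner, ran from -0.41 to -0.34 after washout, -0.87 to -0.68 at B/B 1 h and -0.61 to -0.44 in control. Its change was 0.16 in washout against control and -0.26 in B/B 1 h against control. These ratios describe the size of unequal changes, which the permutation tests could not call. No share of non-overlap was taken over other gene pairs. The ratios do not set the level of 1 transcript against another, since probe sets differ in brightness.

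**Figure D3:**
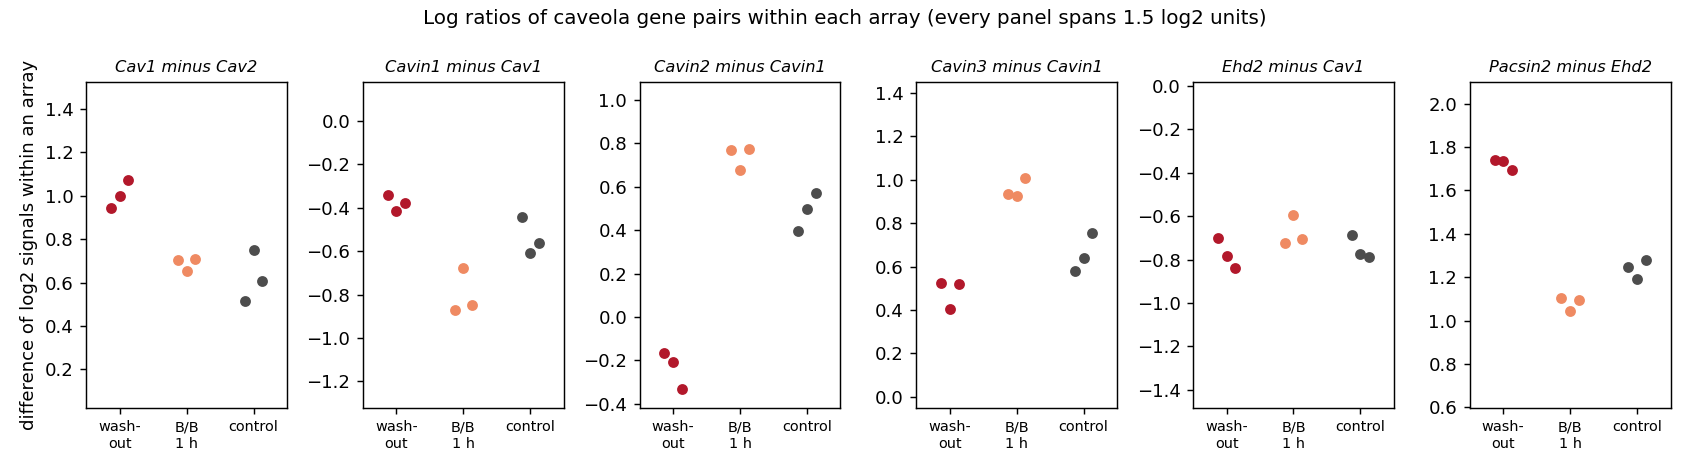
Difference of log2 signals of 2 caveola genes within each array (vertical axis, 1.5 log2 units in every panel) for 6 gene pairs, with 1 point per array in the washout, B/B 1 h AnnV+ and control groups. The 3 groups do not overlap for Cavin1 minus Cav1, Cavin2 minus Cavin1, Cavin3 minus Cavin1 and Pacsin2 minus Ehd2, and all of them overlap for Ehd2 minus Cav1.

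Ehd2 and Pacsin2, the neck genes, differed in their values. Ehd2 read 9.33, 9.38 and 9.35 after washout, 9.81, 9.89 and 9.84 at B/B 1 h and 9.80, 9.82 and 9.73 in control (log2 signal). Its washout arrays were the 3 lowest and the other groups overlapped. Ehd2 fell by 0.43 ± 0.043 in washout against control (log2, SE; 95% interval -0.53 to -0.33; limma adjusted p 5.8e-05) and by 0.50 against B/B 1 h (limma adjusted p 2.1e-05), and at 1 h its log2 difference from control was 0.06 (interval -0.03 to 0.16; limma adjusted p 0.455). The log ratio of Ehd2 over Cav1 changed by -0.02 in washout against control, with overlapping arrays (two-sided exact permutation p 0.60).

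Pacsin2 read 11.07, 11.11 and 11.04 after washout, 10.92, 10.94 and 10.93 at B/B 1 h and 11.04, 11.01 and 11.01 in control (log2 signal). The B/B 1 h arrays were the 3 lowest, while washout and control arrays overlapped. In washout against control its log2 difference was 0.05 ± 0.039 (SE; 95% interval -0.04 to 0.14; limma adjusted p 0.416), an interval that holds none of the differences of the other 6 genes. In B/B 1 h against control the log2 difference was -0.09 (limma adjusted p 0.244). Pacsin2 rose by 0.14 ± 0.039 in washout against B/B 1 h (log2, SE; limma adjusted p 0.0192). The log ratio of Pacsin2 over Ehd2 ran from 1.69 to 1.74 after washout, 1.05 to 1.10 at B/B 1 h and 1.19 to 1.28 in control.

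Set beside all genes, the 7 had a median log2 difference of -0.42 in washout against control, where the median of all 22180 genes was 0.00060. At B/B 1 h against control it was -0.02, against 0.0042 over all genes, and in washout against B/B 1 h it was -0.45, against -0.02. In washout against control the arrays did not overlap in 6 of the 7 genes, all lower after washout, against 38.0% of all genes, 17.8% lower and 20.2% higher. Between washout and B/B 1 h they did not overlap in 6 of the 7, 5 lower and Pacsin2 higher, against 39.6% of all genes, 18.4% lower and 21.1% higher. In B/B 1 h against control they did not overlap in 3 of the 7, Cav2, Cavin1 and Pacsin2, all lower at 1 h, where 21.3% of all genes did not overlap, 12.3% with the B/B 1 h arrays lower. Of the genes called at 1 h, 34.9% were higher. Among the alternatives this share was lowest with array medians centred, 16.7%, and highest without the third control array, 46.1%. With quantile normalization it was 44.6%.

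**Figure D4:**
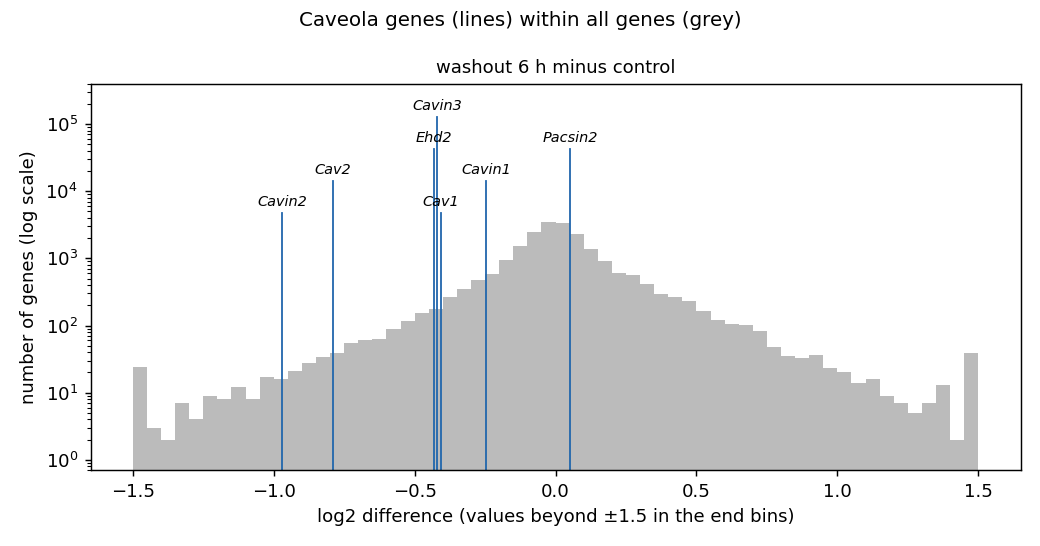
Number of genes (vertical log axis) by log2 difference of washout 6 h minus control (horizontal axis) for all 22180 genes in grey, with blue lines at the 7 caveola genes. Cavin2 at -0.97 and Cav2 at -0.79 lie in the left tail, and Pacsin2 at 0.05 lies in the middle.

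Other genes of caveola biology were taken as 2 lists. Of 10 paralogs of these genes and dynamins, the GTPases that sever membrane necks, 1 was called higher and 2 lower in washout against control. Over all genes 14.5% were called higher and 11.7% lower. The median log2 difference of the 10 was -0.06. Cavin4, a cavin known from muscle, read 5.07 ± 0.12 after washout, 5.66 ± 0.068 at B/B 1 h and 5.92 ± 0.14 in control (log2 signal, SD, n = 3 each) and fell by 0.85 (limma adjusted p 5.0e-05). Dnm1, the dynamin best known from neurons, fell by 0.42, and Pacsin3, a syndapin of muscle, rose by 0.32 (log2; limma adjusted p 9.5e-05 and 3.4e-04). By mean signal Cavin4 lay at percentile 54.3 of all genes and Pacsin3 at 48.6, and whether either was detected was not tested. Dnm2, the ubiquitous dynamin, was at -0.06, Ehd1, a recycling ATPase related to EHD2, at 0.06 and Ehd4 at -0.03, chosen here after their values were seen, and none of these passed the test. At B/B 1 h, 0 of the 10 passed in limma, where 2.89% of all genes did. At an unadjusted p under 0.05, 0 were higher and 1 lower.

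Of 16 partners and regulators of caveolae and lipid rafts, 6 were called higher and 3 lower in washout against control. The shares over all genes were 14.5% higher and 11.7% lower. The median log2 difference of the 16 was 0.01. Fyn, a Src family kinase able to phosphorylate caveolin-1, rose by 0.81 and Fnbp1l, an F-BAR protein, by 0.52 (log2; limma adjusted p 1.4e-06 and 1.0e-05). Flot1 and Flot2, flotillins that form raft domains apart from caveolae, fell by 0.39 and 0.24 (log2; limma adjusted p 0.00114 and 0.00158), and the third lower gene was Hsp90b1, a reticulum chaperone, at -0.17. The other higher genes were Stom at 0.31, Snx9 at 0.28, Yes1 at 0.17 and Dlc1 at 0.15, of which stomatin is a raft-associated relative of the flotillins and Yes1 a Src family kinase. Besides Fyn, Fnbp1l and Flot1, these genes were named after their values were seen. At B/B 1 h, 0 of the 16 passed in limma, where 2.89% of all genes did. At an unadjusted p under 0.05, 0 were higher and 3 lower, and as many as 3 were called lower with a variance trend. The clathrin coat, which drives another route of uptake, gave 3 higher and 5 lower of 12 measured genes in washout against control. This stands against 14.5% higher and 11.7% lower over all genes. The median log2 difference of the 12 was 0.04. The 3 with the largest differences were AP-2 adaptor subunits, Ap2a2 at -0.54, Ap2a1 at -0.36 and Ap2s1 at -0.35 (log2; limma adjusted p 9.3e-06, 2.7e-04 and 6.0e-04). The other two lower genes, named after their values were seen, were the adaptor subunit Ap2m1 at -0.29 and Epn1, an epsin, at -0.31, and the 3 higher ones were Epn2 at 0.29, Cltb, a clathrin light chain, at 0.28 and Fcho2, an F-BAR protein of early pits, at 0.22. At B/B 1 h, 0 of the 12 passed in limma, where 2.89% of all genes did. At an unadjusted p under 0.05, 0 were higher and 1 lower, and 1 was called lower with a variance trend.

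**Figure D5:**
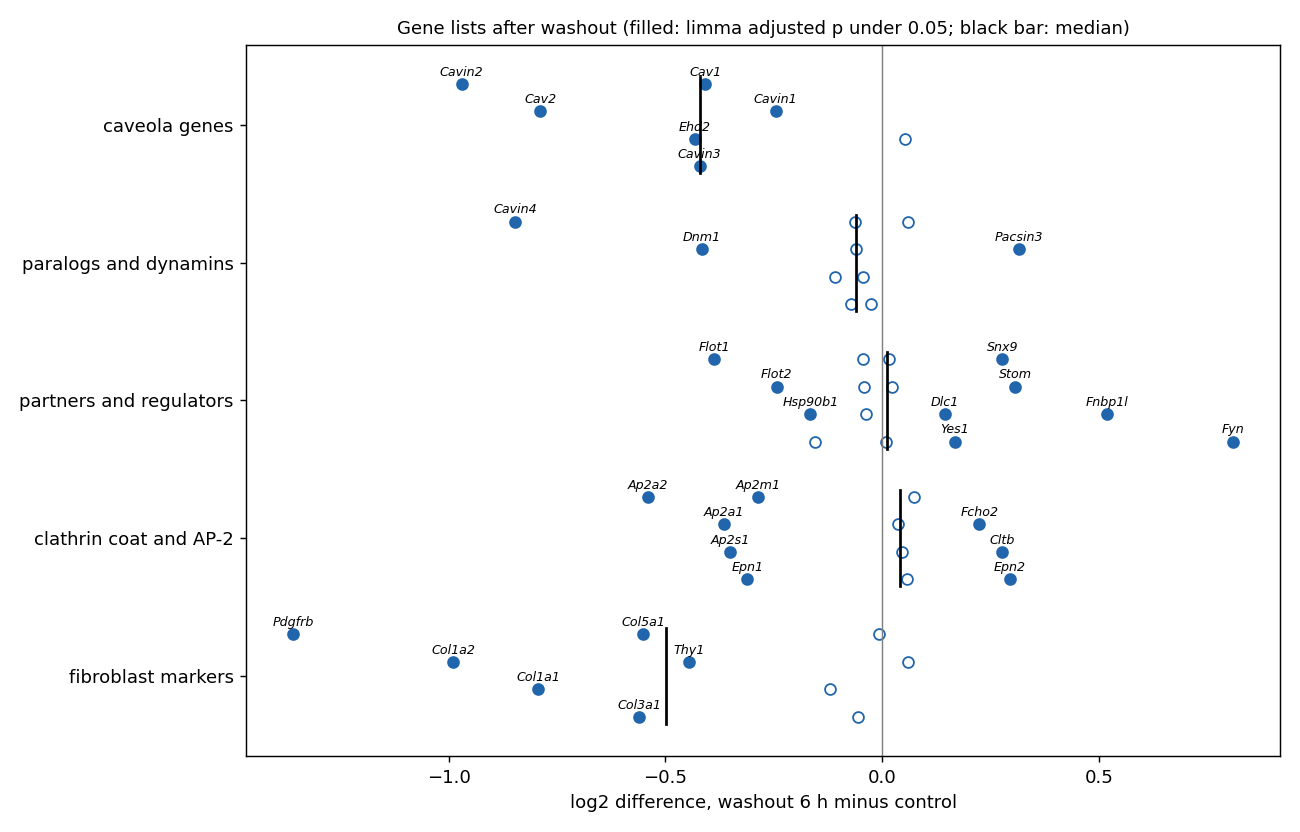
Log2 difference of washout 6 h minus control (horizontal axis) for the caveola genes, 10 paralogs and dynamins, 16 partners and regulators, 12 clathrin coat genes and 10 fibroblast markers, with 1 point per gene, filled and named where limma's adjusted p was under 0.05, and black bars at list medians. The medians of the caveola genes and the fibroblast markers lie at -0.42 and -0.50, and those of the other lists between -0.06 and 0.04.

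Some fibroblast markers fell after washout along with caveola genes, and others were not called. Of 10 markers, 6 fell and 0 rose in washout against control, where 11.7% of all genes fell and 14.5% rose. The median log2 difference of the 10 was -0.50. The mean log2 signal of the list ran from 9.55 to 9.56 on the washout arrays, 10.01 to 10.07 at B/B 1 h and 10.01 to 10.05 in control. Pdgfrb, the PDGF receptor of mesenchymal cells, fell by 1.36 and the collagen gene Col1a2 by 0.99. Vim, the intermediate filament gene, was at -0.01, the matrix gene Fn1 at 0.06 and Prrx1, a mesenchymal transcription factor, at -0.05. Twist1 was at -0.12. Vim, Fn1, Prrx1 and Twist1, named after their values were seen, did not pass the test. At B/B 1 h, 0 of the 10 passed in limma, where 2.89% of all genes did. At an unadjusted p under 0.05, 2 were higher and 1 lower. The dimmest of the 10 markers, Col3a1, lay at percentile 63.6 of all genes by mean signal, a rough guide across probe sets that does not test detection. The part of such a change in the fall of the caveola genes was not tested, and in bulk RNA fewer cells of a type and less RNA per cell cannot be told apart.

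Markers of the other cell types known for caveolae had lower mean signals. Over all genes, 14.5% were called higher and 11.7% lower in washout against control. Of 8 endothelial markers 1 rose, Cdh5 by 0.28, and 0 fell in washout against control (log2), of 6 adipocyte markers 0 passed in limma (0 also at an unadjusted p under 0.05), and of 7 muscle markers 1 rose, Des by 0.33, and 0 fell. Mean log2 signals of these lists ran from 4.37 to 4.49, 4.14 to 4.19 and 5.65 to 5.79 on the washout arrays, 4.36 to 4.51, 4.19 to 4.27 and 5.74 to 5.84 on the B/B 1 h arrays, and 4.33 to 4.38, 4.15 to 4.21 and 5.60 to 5.69 on the control arrays. Of 6 epithelial markers 0 rose and 1 fell, Cdh1, by 0.20. Of 8 leukocyte markers 1 rose after washout, Cd14, by 1.47, and 2 fell, Ptprc and Lyz2, by 0.19 and 0.30. At 1 h 3 of them rose, Cd14 by 0.61, Cd68 by 0.51 and Adgre1 by 0.30, where 1.01% of all genes were called higher. Ptprc, the gene of the pan-leukocyte antigen CD45, averaged 3.2 after washout, 3.35 at B/B 1 h and 3.39 in control (log2 signal, n = 3 each), within the lowest 30% of genes. Of the 8 leukocyte markers 5 lay in that range by mean signal, with Adgre1 at percentile 16.1 and Lyz2 at 21.9. Whether these were detected was not tested. The part of any of these markers in the values of the caveola genes was not tested.

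The genes whose values over the 9 arrays came closest to each member were found by Euclidean distance between centred log2 signals, among 14106 genes outside the lowest 30% by mean, with the members and predicted genes left out. The closest to Cav1 were Zcchc24, a zinc finger gene, and Srm, which encodes spermidine synthase, at distances of 0.091 and 0.10 (log2). Cav2 was closest to Slc25a12, a mitochondrial aspartate-glutamate carrier gene, and the small heat shock gene Hspb6 (0.113 and 0.137), and Cavin2 to Ssbp2 and Nrm, which encode a single-stranded DNA binding protein and a nuclear envelope protein (0.0988 and 0.125). Cavin3 was closest to Arhgef25 and Cope, the second of the COPI coat (0.102 and 0.114), and Ehd2 to Pja2, a ubiquitin ligase gene, and Gpx1, a glutathione peroxidase gene (0.0975 and 0.0990). Cavin1 was closest to Sesn2, a stress-induced regulator of mTORC1, and Trim47 (0.0929 and 0.137), whose log2 differences at 1 h were -0.23 and -0.22. Pacsin2 was closest to Ppp4r2, a phosphatase regulatory subunit gene, and the claudin gene Cldn12 (0.0416 and 0.0584). Among the members themselves the closest pairs were Cav1 with Ehd2 (0.203), Cavin3 with Ehd2 (0.214) and Cav1 with Cavin3 (0.232), and the farthest was Cavin2 with Pacsin2 (1.5). The points are the same 9 arrays in each case, and the distances are a description.

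Leaving out any 1 of the 9 arrays kept all 6 falls in washout against control past the threshold, with the highest adjusted p, 0.0313, for Cavin1. Within that comparison no member changed direction under any alternative tried. Array medians of all probe sets lay between 4.6 and 4.7 (log2), arrays of a group correlated at 0.998 to 0.999 over genes, which are not independent replicates, and the number of arrays limits the precision.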

How the data were processed

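Total RNA of each sample was hybridised to 1 of 9 one-colour Affymetrix arrays, after a Trizol extraction and biotin labelling of cRNA, per the labels' protocols. The submitters' processing notes name Partek 6.6. The deposited values are log2 probe set signals that the authors had already normalized, as read from near-equal quantiles of the arrays. How they did so is not given in the sources used here, and base 2 was inferred from the range, which limits every fold. Detection calls were not used here.

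The platform annotation gave 1 symbol to 23521 of 41345 probe sets, several to 1814 and none to 16010. RefSeq's gene table (GRCm38.p6) listed 23328 of the single-symbol entries by ID and altered 0 symbols. The probe set with the highest mean stood for each of 22180 genes. Groups came from the treatment labels, and arrays within a group are numbered in accession order, which pairs none of them. A linear model of 3 group means was fitted to all arrays with limma 3.58.1 in R 4.3.3 (6 residual and 3.38 prior degrees of freedom), with Benjamini-Hochberg adjustment over all genes. The code was first tested on simulated data. Log ratios of member pairs were compared with exact permutation tests over arrays.

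The members and lists were chosen with earlier results of these data known. Genes named were all members, up to 3 genes of each further list with the largest difference past the threshold against control, and the 2 nearest patterns of each member that passed the F-test. Other genes of the lists, cell type markers included, were named after their values were seen. Picalm, on the clathrin list, had no 1-symbol probe set and was not analysed here. Alternatives were quantile normalization, centred medians, a filter on the lowest 30% of genes, averaged probe sets, a variance trend, a robust prior, array weights, no moderation, a stricter adjusted p under 0.01, fits of 2 groups alone and fits without each array in turn.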

Additional observations from a re-analysis of the deposited data

How the results depend on the processing

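Of the 13 member differences past the threshold, 11 kept their direction and their side of it under all 19 alternatives (each array left out counted singly). The exceptions were Cavin1 at B/B 1 h against control, lost under 9, and Pacsin2 in washout against B/B 1 h, lost under 2, and the causes were not tested. At 1 h the count of lower members was 1, and it was 2 with a variance trend, which added Pacsin2, and 0 without moderation, 0 with only the 2 groups compared and 0 at adjusted p under 0.01. It ran from 0 to 1 with 1 array left out. In washout against B/B 1 h the count of higher members, 1, was 0 at adjusted p under 0.01 and ran from 0 to 1 with 1 array left out. The count over all genes at 1 h, 642, was 975 with array medians centred, 1228 with a variance trend, 359 with only the 2 groups compared and 239 at adjusted p under 0.01, and 323 to 691 with 1 array left out. Leaving out the first control array gave 376 calls, the second 372 and the third 323, and the first B/B 1 h array left out gave 369 and the second 422.

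Some differences that were not called changed sign. Cavin3 at 1 h was -0.0234 with array medians centred. With 1 array left out, Cav1 at 1 h ran from -0.0323 to 0.0193 and Cavin2 at 1 h from -0.0406 to 0.0012, and Cavin1 in washout against B/B 1 h from -0.0071 to 0.0676 (log2). The change of the log ratio of Ehd2 over Cav1 in washout against control ran from -0.061 to 0.0092. No paired analysis was possible because the labels give no replicate numbers, and the order of arrays in a group only names them. Each member had 1 probe set, so no other probe set could be tried, and linear values did not occur. Signal over background was not analysed here.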
